A study of Solanum lycopersicum with 9 samples.

Results

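Oleosins are the small structural proteins that coat the oil bodies of seeds. All rows of the deposited table whose description contains the word oleosin, without caleosins and steroleosins, were taken as members, which gave 19 of 40229 rows. Of these, 9 had a mean of at least 1 over all libraries and were tested; the other 10 are described by their values only. The seeds were of tomato, Solanum lycopersicum, and had been imbibed (left to take up water) for 6 h before RNA extraction. Libraries came from an SlLBD40 knockout (n = 3), an SlWRKY37 knockout (n = 3) and the wild type (WT, n = 3), all imbibed alike. SlLBD40 is a LOB domain factor and SlWRKY37 a WRKY factor, both of transcription factor families found in plants. Cultivar, number of independent knockout lines and origin of the replicates (plants, seed lots) are not stated in the labels, so that p-values cover the spread among these libraries, which may be technical.

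An oleosin anchors itself in the oil with a long hydrophobic hairpin and covers the surface with its 2 ends, which keeps neighbouring oil bodies from fusing while a seed dries and takes up water again. Oleosin transcripts build up during seed maturation together with those of storage and late embryogenesis abundant (LEA) proteins, and they are known to decline as germination proceeds. In Arabidopsis the proteins themselves are marked with ubiquitin, pulled off the oil body and degraded when the oil is used. Since the gene IDs in the table are cut short, a member is called by its description and chromosome; genes that share both are numbered as copies in table order.

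Values are expression values taken as FPKM, which are scaled by transcript length, so that levels of different genes can be set side by side. Values summed to 856291 to 918103 per library, with 23206 to 24507 genes detected above 0. Read depth is unknown, so no counting intervals are given. Transcripts of vicilins, legumins, LEA proteins and dehydrins (111 rows) were taken as markers of seeds. Rows described as hydroxyproline-rich LEA proteins were not left out of these markers. The markers summed to 19476 to 23392 in the SlLBD40 knockout, 22526 to 36087 in the SlWRKY37 knockout and 57940 to 72448 in WT. Seed transcripts were thus present in every library. The edited genes could not be matched to a row. A row described as LOB domain-containing protein 40 on chromosome 5 averaged 40.9 ± 4.24 in the SlLBD40 knockout, 11.7 ± 8.3 in the SlWRKY37 knockout and 12.6 ± 7.44 in WT (SD, n = 3 each). It was higher in the SlLBD40 knockout than in WT (log2 change 1.78, limma adjusted p = 0.0169) and than in the SlWRKY37 knockout (log2 change 1.93, adjusted p = 0.017). A row described as WRKY transcription factor 37 on chromosome 1 averaged 1.25 ± 0.587 in the SlLBD40 knockout, 0.0767 ± 0.133 in the SlWRKY37 knockout and 0.633 ± 0.325 in WT. The row named like SlLBD40 was thus not lower in the SlLBD40 knockout. Whether these rows are the edited genes is not settled, so the labels could not be checked by them.

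Seeds of the SlLBD40 knockout held lower RNA levels of all 9 tested oleosins than WT seeds, and seeds of the SlWRKY37 knockout held lower levels of 7 of the 9. Among all 18346 tested genes, 37.2% passed in the SlLBD40 knockout (19.2% as lower) and 9.38% in the SlWRKY37 knockout (4.56% as lower), at an adjusted p below 0.05 in limma. The summed oleosin value was 3412, 3507 and 2797 in the SlLBD40 knockout libraries, 3020, 2824 and 5213 in the SlWRKY37 knockout libraries, and 9161, 9537 and 7074 in the WT libraries. The highest knockout library was thus below the lowest WT library. As a share of the library sum, oleosins made up 0.367 ± 0.0509% in the SlLBD40 knockout, 0.417 ± 0.162% in the SlWRKY37 knockout and 0.954 ± 0.143% in WT (SD, n = 3 each). In the SlWRKY37 knockout the share was 0.603% in replicate 3, and without that library it was 0.324 ± 0.0237%. In such bulk samples, fewer cells that carry oleosin RNA and less oleosin RNA per cell cannot be told apart.

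**Figure D1:**
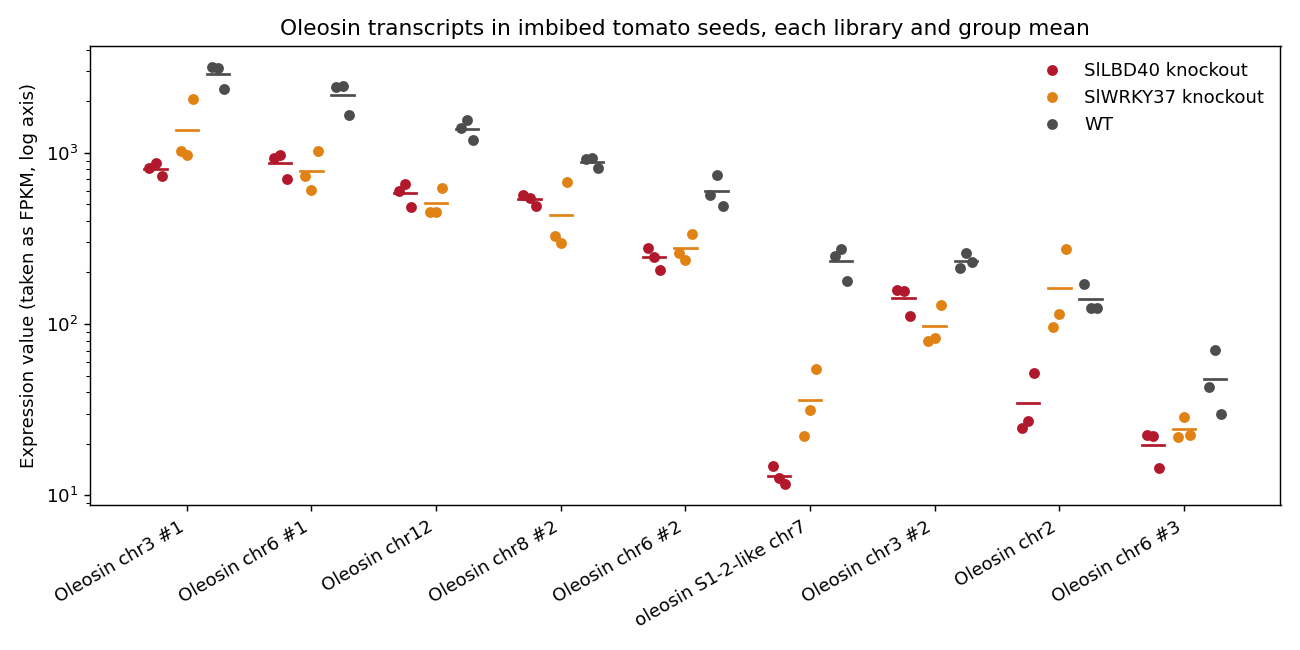
Expression value (taken as FPKM, log axis) of the 9 tested oleosins in each library, with SlLBD40 knockout, SlWRKY37 knockout and WT from left to right; points are libraries, short lines are group means of 3 libraries and # gives the copy number. For every oleosin the SlLBD40 knockout libraries lie below the WT libraries; Oleosin chr2 is the member whose SlWRKY37 knockout libraries overlap those of WT.

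The most abundant member was Oleosin on chromosome 3 (copy 1). It had 813, 867 and 728 in the SlLBD40 knockout libraries, 1030, 973 and 2069 in the SlWRKY37 knockout libraries, and 3177, 3118 and 2358 in the WT libraries. All knockout libraries lay below all WT libraries, although replicate 3 of the SlWRKY37 knockout came close to the lowest of them. On the scale of log2(value + 1), the gene fell by 1.83 in the SlLBD40 knockout (SE 0.256, limma adjusted p = 0.000875) and by 1.16 in the SlWRKY37 knockout (SE 0.256, adjusted p = 0.0202). Ranked by group mean among all rows of the table, it stood at place 130 in the SlLBD40 knockout, 55 in the SlWRKY37 knockout and 15 in WT. In the SlWRKY37 knockout it no longer passed when WT replicate 1 (adjusted p = 0.0808), WT replicate 2 (0.065), SlWRKY37 knockout replicate 1 (0.0721) or SlWRKY37 knockout replicate 2 (0.0694) was left out.

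Oleosin on chromosome 6 (copy 1) was the next most abundant in WT. It had 928, 972 and 703 in the SlLBD40 knockout libraries, 733, 604 and 1022 in the SlWRKY37 knockout libraries, and 2426, 2468 and 1670 in the WT libraries. The knockout libraries overlapped each other and lay below WT. The gene fell by 1.32 on the log2 scale in the SlLBD40 knockout (SE 0.22, adjusted p = 0.00188) and by 1.49 in the SlWRKY37 knockout (SE 0.22, adjusted p = 0.00326). In the SlLBD40 knockout it had the highest mean of all oleosins, 868 ± 145 against 803 ± 69.9 for Oleosin on chromosome 3 (copy 1), but the libraries of these 2 genes overlapped there, as they did in WT.

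Oleosin on chromosome 12 had 601, 656 and 480 in the SlLBD40 knockout libraries, 450, 453 and 624 in the SlWRKY37 knockout libraries, and 1398, 1546 and 1184 in the WT libraries. It had the narrowest error of the 9 and dropped to about the same level in both knockouts, by 1.25 in the SlLBD40 knockout (SE 0.168, adjusted p = 0.000774) and by 1.44 in the SlWRKY37 knockout (SE 0.168, adjusted p = 0.00114). Oleosin on chromosome 6 (copy 2) followed the same pattern at a lower level, with 280, 248 and 208 in the SlLBD40 knockout libraries, 260, 236 and 337 in the SlWRKY37 knockout libraries and 568, 743 and 487 in the WT libraries. It fell by 1.27 in the SlLBD40 knockout (SE 0.184, adjusted p = 0.001) and by 1.10 in the SlWRKY37 knockout (SE 0.184, adjusted p = 0.0058).

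The steepest drop was that of oleosin S1-2-like on chromosome 7. It had 14.8, 12.6 and 11.6 in the SlLBD40 knockout libraries, 22.3, 31.7 and 54.3 in the SlWRKY37 knockout libraries, and 250, 275 and 177 in the WT libraries. The 3 groups did not overlap, with the SlLBD40 knockout lowest and the SlWRKY37 knockout between it and WT. The group mean in the SlLBD40 knockout was 5.54% of that in WT, and in the SlWRKY37 knockout it was 15.4% of that in WT. The gene fell by 4.05 on the log2 scale in the SlLBD40 knockout (SE 0.279, adjusted p = 4.23e-05) and by 2.73 in the SlWRKY37 knockout (SE 0.279, adjusted p = 0.000689). Among the 18346 tested genes this was the 6th most negative log2 change in the SlLBD40 knockout and the 24th in the SlWRKY37 knockout. The description names as its best match the RefSeq protein of LOC104648541, which also lies on chromosome 7.

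Oleosin on chromosome 2 set the knockouts apart. It had 24.6, 27.1 and 51.9 in the SlLBD40 knockout libraries, 95.6, 115 and 276 in the SlWRKY37 knockout libraries, and 171, 124 and 125 in the WT libraries. The SlLBD40 knockout lay below both other groups, while the SlWRKY37 knockout and WT overlapped, and replicate 3 of the SlWRKY37 knockout was the highest of all libraries. The gene fell by 2.05 on the log2 scale in the SlLBD40 knockout (SE 0.382, adjusted p = 0.00317). Its change in the SlWRKY37 knockout was 0.07 with a 95% interval of -0.78 to 0.92 (adjusted p = 0.94), and without replicate 3 of that knockout it was -0.39 (adjusted p = 0.415).

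The 3 remaining members had smaller changes than the others in the SlLBD40 knockout, of 0.72 to 1.18 in size, but not in the SlWRKY37 knockout. Oleosin on chromosome 8 (copy 2) had 570, 544 and 488 in the SlLBD40 knockout libraries, 328, 299 and 677 in the SlWRKY37 knockout libraries, and 917, 934 and 814 in the WT libraries. Its fall of 1.13 in the SlWRKY37 knockout (SE 0.254, adjusted p = 0.0222) and of 0.73 in the SlLBD40 knockout (SE 0.254, adjusted p = 0.0447) both depended on which libraries were in the fit. Leaving out any 1 WT or SlLBD40 knockout library ended the call in the SlLBD40 knockout (adjusted p = 0.075 to 0.114). Leaving out any 1 WT library, or replicate 1 or 2 of the SlWRKY37 knockout, ended the call in the SlWRKY37 knockout (adjusted p = 0.0565 to 0.0797).

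Oleosin on chromosome 3 (copy 2) had 158, 156 and 112 in the SlLBD40 knockout libraries, 79.6, 83.1 and 129 in the SlWRKY37 knockout libraries, and 211, 258 and 229 in the WT libraries. All knockout libraries were below WT, and here the SlWRKY37 knockout had the lower mean of the 2 knockouts. The gene fell by 0.72 in the SlLBD40 knockout (SE 0.197, adjusted p = 0.0176) and by 1.28 in the SlWRKY37 knockout (SE 0.197, adjusted p = 0.0039). In the SlLBD40 knockout it no longer passed when WT replicate 2 (adjusted p = 0.0648) or SlLBD40 knockout replicate 3 (0.0601) was left out.

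Oleosin on chromosome 6 (copy 3), the lowest tested member in WT, had 22.4, 22.1 and 14.46 in the SlLBD40 knockout libraries, 21.8, 28.7 and 22.4 in the SlWRKY37 knockout libraries, and 43.1, 70.7 and 30 in the WT libraries. It fell by 1.18 in the SlLBD40 knockout (SE 0.28, adjusted p = 0.00945). Its change in the SlWRKY37 knockout was -0.88 (95% interval -1.50 to -0.26, adjusted p = 0.0798), which did not pass although the groups did not overlap. This gene and Oleosin on chromosome 3 (copy 2) share the same best-matching protein in their descriptions, while their WT means were 47.9 ± 20.8 and 233 ± 23.7.

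Over all 9 tested members, 9 fell in the SlLBD40 knockout, where 37.2% of all 18346 tested genes passed the test, 19.2% as lower and 18% as higher. Of the 9 members, 7 fell in the SlWRKY37 knockout, where 9.38% of all tested genes passed, 4.56% as lower and 4.82% as higher. All libraries of the SlLBD40 knockout lay below all WT libraries for 9 members, as they did for 29.5% of all tested genes, and above them for 27.3% of all tested genes. All libraries of the SlWRKY37 knockout lay below all WT libraries for 8 members, as they did for 13.1% of all tested genes, and above them for 14.2% of all tested genes. The median log2 change of the members was -1.27 in the SlLBD40 knockout and -1.16 in the SlWRKY37 knockout, while that of all tested genes was -0.02 and 0.02. Both comparisons share the same 3 WT libraries, so the 7 members that fell in both are not 2 separate observations of WT.

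**Figure D2:**
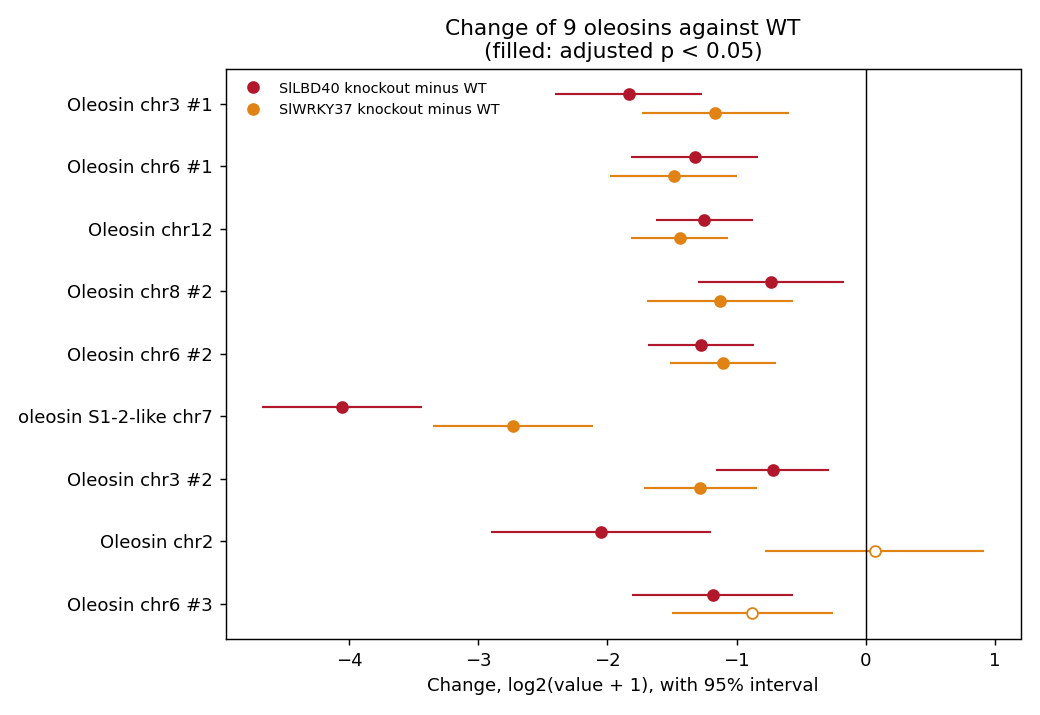
Change of each of the 9 tested oleosins on the log2(value + 1) scale, SlLBD40 knockout minus WT above and SlWRKY37 knockout minus WT below within each pair, with 95% intervals from the limma fit; filled points passed at an adjusted p below 0.05. Oleosin S1-2-like lies farthest from 0 at -4.05 and -2.73, and Oleosin chr2 is near 0 in the SlWRKY37 knockout only.

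The knockouts were also compared with each other. Of the 9 oleosins, 2 were lower in the SlLBD40 than in the SlWRKY37 knockout, where 27% of all tested genes passed, 14.1% as lower and 12.9% as higher. For 3 members, these 2 and Oleosin on chromosome 3 (copy 1), the SlLBD40 knockout lay wholly below the SlWRKY37 knockout, as it did for 23.3% of all tested genes. It lay wholly above for 19% of all tested genes. Among only 9 members, both counts lay near the shares over all tested genes. Oleosin on chromosome 2 averaged 34.5 ± 15.1 in the SlLBD40 knockout and 162 ± 99 in the SlWRKY37 knockout (log2 change -2.12, SE 0.382, adjusted p = 0.00447). Oleosin S1-2-like averaged 13 ± 1.61 in the SlLBD40 knockout and 36.1 ± 16.5 in the SlWRKY37 knockout (log2 change -1.32, SE 0.279, adjusted p = 0.00853).

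The other 7 oleosins did not pass between the knockouts. Their changes ran from -0.67 for Oleosin on chromosome 3 (copy 1, 95% interval -1.24 to -0.10, adjusted p = 0.0765) to 0.56 for Oleosin on chromosome 3 (copy 2, SE 0.197, adjusted p = 0.0604). For Oleosin on chromosome 12 the interval was -0.18 to 0.56, and for Oleosin on chromosome 6 (copy 1) it was -0.33 to 0.65. Without replicate 3 of the SlWRKY37 knockout, Oleosin on chromosome 3 (copy 2) and Oleosin on chromosome 8 (copy 2) were higher in the SlLBD40 than in the SlWRKY37 knockout, by 0.78 (adjusted p = 0.0121) and 0.76 (adjusted p = 0.00343), so that 4 members then passed.

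The pool of oleosin transcripts changed in make-up as well as in size. In WT, 3 genes, Oleosin on chromosome 3 (copy 1), on chromosome 6 (copy 1) and on chromosome 12, made up 75 ± 1.38% of the summed oleosin value; they made up 69.4 ± 1.55% in the SlLBD40 knockout and 72.2 ± 1.02% in the SlWRKY37 knockout. The share of Oleosin on chromosome 3 (copy 1) was 23.8 to 26.0% in the SlLBD40 knockout, below the 34.1 to 39.7% of the SlWRKY37 knockout and the 32.7 to 34.7% of WT. The share of Oleosin on chromosome 8 (copy 2) was 15.5 to 17.4% in the SlLBD40 knockout, above the 10.6 to 13.0% of the SlWRKY37 knockout and the 9.79 to 11.5% of WT.

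Of the minor members, oleosin S1-2-like held 0.36 to 0.432% of the pool in the SlLBD40 knockout, 0.738 to 1.12% in the SlWRKY37 knockout and 2.51 to 2.89% in WT. Oleosin on chromosome 2 held 0.72 to 1.86% in the SlLBD40 knockout, 3.17 to 5.29% in the SlWRKY37 knockout and 1.30 to 1.86% in WT. The first of these shares separated all 3 groups, and the second separated the SlWRKY37 knockout from the others. Shares of a pool depend on each other, and no test was made on them.

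**Figure D3:**
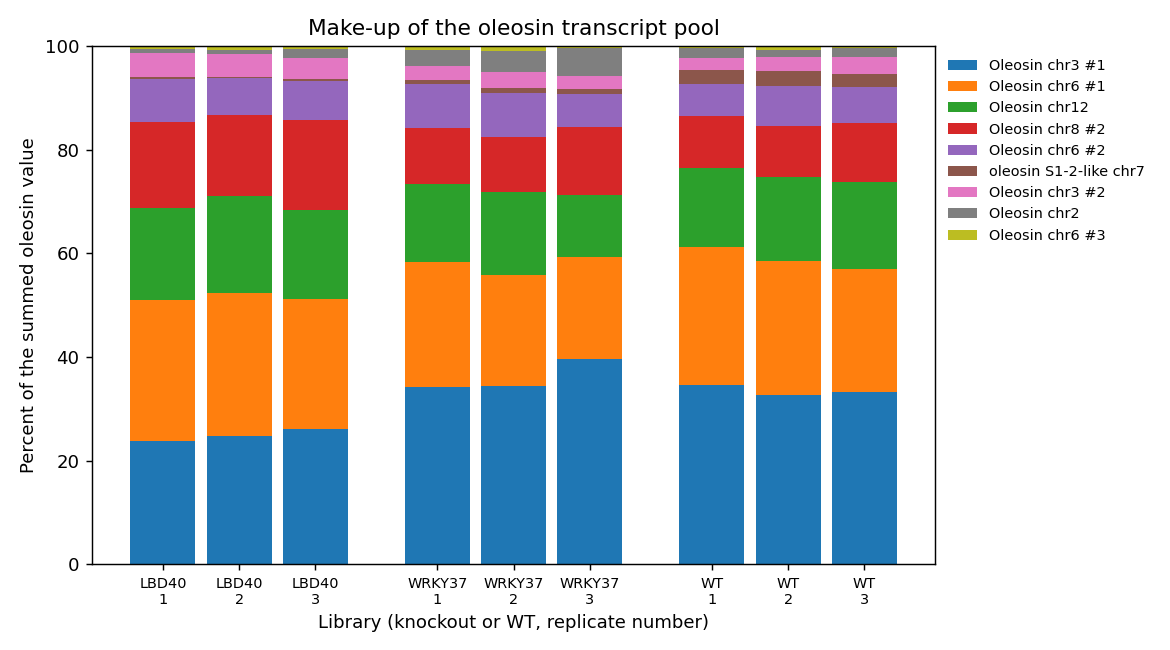
Percent of the summed oleosin value held by each of the 9 tested members, 1 bar per library, in the order SlLBD40 knockout, SlWRKY37 knockout and WT; # gives the copy number. The segment of Oleosin chr3 #1 is 23.8 to 26.0% in the SlLBD40 knockout and at least 32.7% in the other libraries.

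The order of the levels within a group was clear for part of the family. In WT, Oleosin on chromosome 12, on chromosome 8 (copy 2) and on chromosome 6 (copy 2) followed each other without overlap between libraries. Oleosin S1-2-like and Oleosin on chromosome 3 (copy 2), at 234 ± 50.9 and 233 ± 23.7, could not be ordered. In the SlLBD40 knockout, oleosin S1-2-like was the lowest tested oleosin, with libraries that overlapped those of Oleosin on chromosome 6 (copy 3). Most neighbours in the order overlapped in the SlWRKY37 knockout, whose replicate 3 was high for 8 of the 9 members.

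Within each group, most members were highest or lowest in the same library. In the SlWRKY37 knockout, replicate 3 held the highest value for 8 of 9 members, with a median deviation of 0.44 (log2) from the group means. In the SlLBD40 knockout, replicate 3 held the lowest value for 8 of 9 members, and in WT replicate 3 held the lowest for 7 of 9. The sum of the seed marker transcripts was likewise highest of its group in replicate 3 of the SlWRKY37 knockout (36087) and lowest of its group in replicate 3 of the SlLBD40 knockout (19476) and replicate 3 of WT (57940). Its part in the oleosin values was not tested. Mannan endo-1,4-beta-mannosidase transcripts, taken as markers of endosperm (16 rows, 12 tested and 3 at 0), summed to 246 to 341 in the SlLBD40 knockout, 292 to 450 in the SlWRKY37 knockout and 191 to 234 in WT. Transcripts of green tissue (35 rows, 19 tested, 0 at 0) summed to 211 to 253 in the SlLBD40 knockout, 71.8 to 96.9 in the SlWRKY37 knockout and 105 to 281 in WT. Those of pollen and anther (53 rows, 15 tested, 19 at 0) summed to 528 to 599 in the SlLBD40 knockout, 496 to 667 in the SlWRKY37 knockout and 422 to 487 in WT. The part of these tissues in the oleosin levels was not tested.

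Across the 9 libraries most members were alike in pattern. As a description over libraries that all members share, Pearson's r of log2(value + 1) had a median of 0.83 over the 36 pairs of members and reached 0.99 between Oleosin on chromosome 6 (copy 1) and Oleosin on chromosome 12. Oleosin on chromosome 2 had a median r of 0.39 with the others, from 0.08 with Oleosin on chromosome 3 (copy 2) to 0.69 with oleosin S1-2-like and 0.74 with Oleosin on chromosome 3 (copy 1). Pairs without it had an r of at least 0.58. The differences between WT and the knockouts enter every r, and r was not taken over pairs of other genes. A likeness particular to the oleosins thus cannot be read from these values.

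The genes most like the family were sought among 9287 other genes with a mean of at least 10 and an informative description, by r with the mean standardised profile of the 9 oleosins over the 9 libraries. The highest r (0.99) was that of 11-beta-hydroxysteroid dehydrogenase-like 6 on chromosome 7, of the enzyme family that in Arabidopsis includes the steroleosins of oil bodies. It averaged 6.53 ± 1.01 in the SlLBD40 knockout, 7.10 ± 2.57 in the SlWRKY37 knockout and 26.7 ± 4.76 in WT. A late embryogenesis abundant protein on chromosome 2 (copy 1), tonoplast intrinsic protein 3.2 on chromosome 3 (a water channel of a type found in Arabidopsis seed storage vacuoles), Low-temperature-induced 65 kDa protein on chromosome 1, an AWPM-19-like family protein on chromosome 5 and an F-box family protein on chromosome 3 (copy 2) came next, with r of 0.98 to 0.99. Tonoplast intrinsic protein 3.2 averaged 189 ± 23.2 in the SlLBD40 knockout, 301 ± 146 in the SlWRKY37 knockout and 956 ± 171 in WT. The most opposite genes were an S-adenosyl-L-methionine-dependent methyltransferase on chromosome 1 (copy 16), a Non-specific serine/threonine protein kinase on chromosome 4 (copy 1) and Alcohol dehydrogenase on chromosome 11, with r of -0.99, -0.98 and -0.98.

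**Figure D4:**
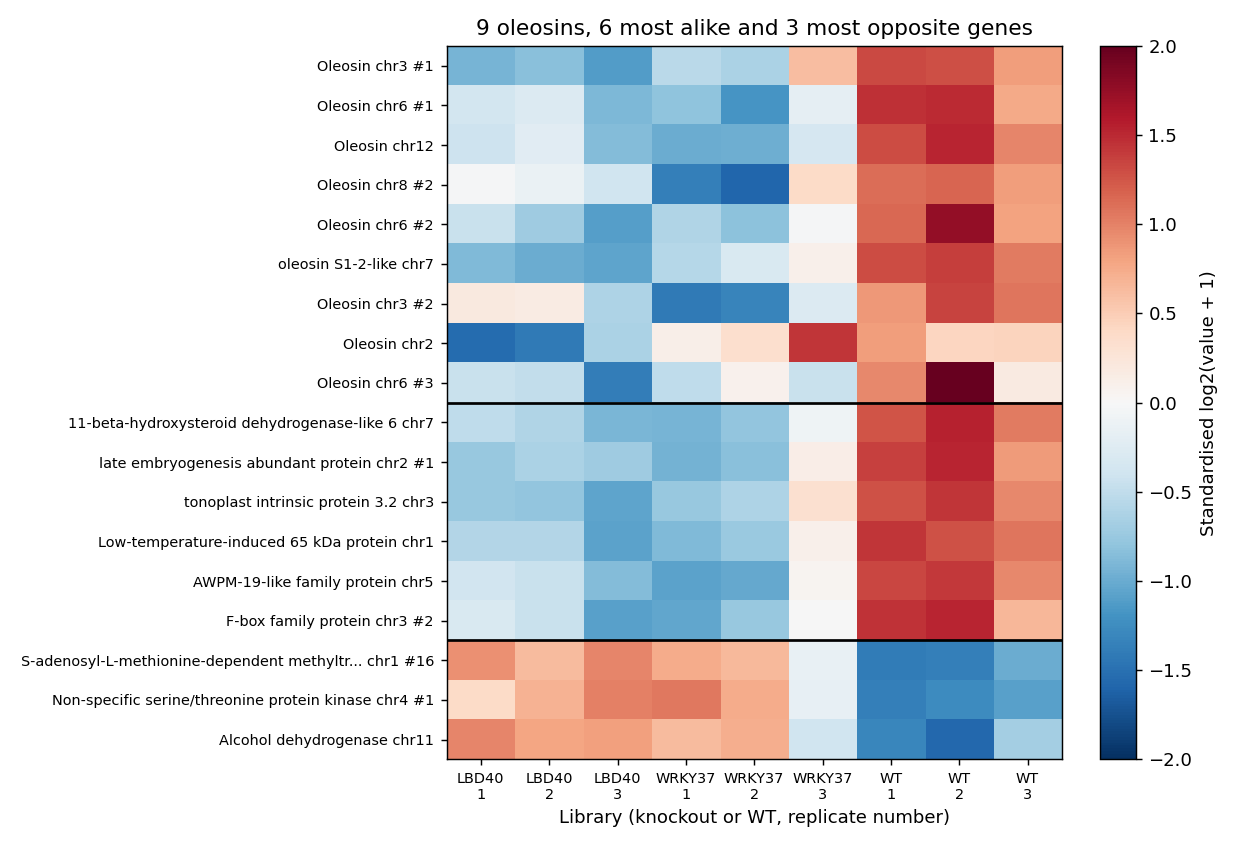
Standardised log2(value + 1) of the 9 tested oleosins (top), the 6 most alike genes (middle) and the 3 most opposite genes (bottom) in the 9 libraries, each gene scaled to mean 0 and SD 1. In replicate 3 of the SlWRKY37 knockout, Oleosin chr2 reaches its highest value, and the 6 alike genes are higher than in the other 2 libraries of that knockout.

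Other genes of oil bodies and of their formation did not all follow the oleosins. Of 15 tested genes in a list of caleosins, steroleosin-like dehydrogenases, oil body-associated proteins, seipins and rubber elongation factor-like proteins, 8 fell and 3 rose in the SlLBD40 knockout (median log2 change -0.75), and 9 fell and 1 rose in the SlWRKY37 knockout (median -1.13). Another 4 rows of the list were below the minimum level. Over all tested genes 19.2% were lower and 18% higher in the SlLBD40 knockout, and 4.56% and 4.82% in the SlWRKY37 knockout. The summed value of this list was 5733 ± 259 in the SlLBD40 knockout, 3861 ± 647 in the SlWRKY37 knockout and 4714 ± 93.7 in WT. It was above the oleosin sum in every SlLBD40 knockout library and below it in every WT library. Rubber elongation factor on chromosome 1 alone held much of the summed value of the list. This gene averaged 3234 in the SlLBD40 knockout, 2063 in the SlWRKY37 knockout and 1933 in WT.

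Caleosins are calcium-binding oil body proteins with peroxygenase activity. Caleosin on chromosome 1 (copy 1) averaged 11.6 ± 2.89 in the SlLBD40 knockout, 19.2 ± 9.6 in the SlWRKY37 knockout and 40.2 ± 4.13 in WT, and fell in both (adjusted p = 0.0019 and 0.0367). Peroxygenase on chromosome 12 averaged 185 ± 10.2 in the SlLBD40 knockout, 183 ± 69.2 in the SlWRKY37 knockout and 420 ± 79.3 in WT and also fell in both (adjusted p = 0.0044 and 0.0101). Caleosin on chromosome 1 (copy 2) averaged 582 ± 25.6 in the SlLBD40 knockout, 356 ± 154 in the SlWRKY37 knockout and 258 ± 29.2 in WT, and rose in the SlLBD40 knockout by 1.18 (adjusted p = 0.00445). Its change in the SlWRKY37 knockout was 0.39 (adjusted p = 0.343).

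Seipins are membrane proteins at the sites where oil bodies form on the endoplasmic reticulum. The gene described as seipin-1 on chromosome 4 averaged 21.4 ± 0.33 in the SlLBD40 knockout, 51.3 ± 10.9 in the SlWRKY37 knockout and 109 ± 15.1 in WT, and fell by 2.28 and 1.08 (adjusted p = 4.23e-05 and 0.00353). Seipin on chromosome 7 averaged 188 ± 21.4 in the SlLBD40 knockout, 83.7 ± 18.7 in the SlWRKY37 knockout and 39.1 ± 8.54 in WT, and rose by 2.25 and 1.07 (adjusted p = 0.000116 and 0.00797). For both seipins the 3 groups did not overlap, in opposite orders. A further seipin on chromosome 2 averaged 4.73 ± 0.581 in the SlLBD40 knockout, 4.50 ± 0.118 in the SlWRKY37 knockout and 5.86 ± 0.793 in WT and did not pass in either knockout (adjusted p = 0.209 and 0.237).

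The 3 steroleosin-like dehydrogenases fell in both knockouts. 11-beta-hydroxysteroid dehydrogenase-like 5 on chromosome 6 averaged 32 ± 5.58 in the SlLBD40 knockout, 45.7 ± 8.56 in the SlWRKY37 knockout and 124 ± 32.6 in WT, and 11-beta-hydroxysteroid dehydrogenase 1A on chromosome 3 averaged 33.7 ± 6.27 in the SlLBD40 knockout, 19.1 ± 7.52 in the SlWRKY37 knockout and 56.9 ± 5.46 in WT. The oil body-associated protein 2A-like genes, of a family first found in maize, were lower in the SlWRKY37 knockout at all 3 loci. On chromosome 3 the mean was 123 ± 29.8 in the SlLBD40 knockout, 108 ± 66 in the SlWRKY37 knockout and 441 ± 108 in WT, and both knockouts passed (adjusted p = 0.00545 and 0.00766). Copy 1 on chromosome 2 averaged 174 ± 17.9 in the SlLBD40 knockout, 97.9 ± 39.7 in the SlWRKY37 knockout and 347 ± 55.1 in WT, and fell in both knockouts (adjusted p = 0.0107 and 0.00166). Copy 2 averaged 179 ± 4.56 in the SlLBD40 knockout, where it did not pass (adjusted p = 0.4), 87.2 ± 36 in the SlWRKY37 knockout, where it fell (adjusted p = 0.00464), and 212 ± 3.29 in WT.

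Rubber elongation factor-like proteins coat lipid droplets of many plant tissues. Rubber elongation factor on chromosome 1 was the most abundant of them and rose in the SlLBD40 knockout, with 3234 ± 115 there, 2063 ± 493 in the SlWRKY37 knockout and 1933 ± 250 in WT (adjusted p = 0.00699 and 0.821). The REF/SRPP-like protein genes on chromosomes 5 and 9 did not pass in either knockout; they averaged 467 ± 17.5 and 489 ± 74.3 in the SlLBD40 knockout, 500 ± 36.1 and 234 ± 103 in the SlWRKY37 knockout, and 390 ± 31.6 and 311 ± 117 in WT.

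**Figure D5:**
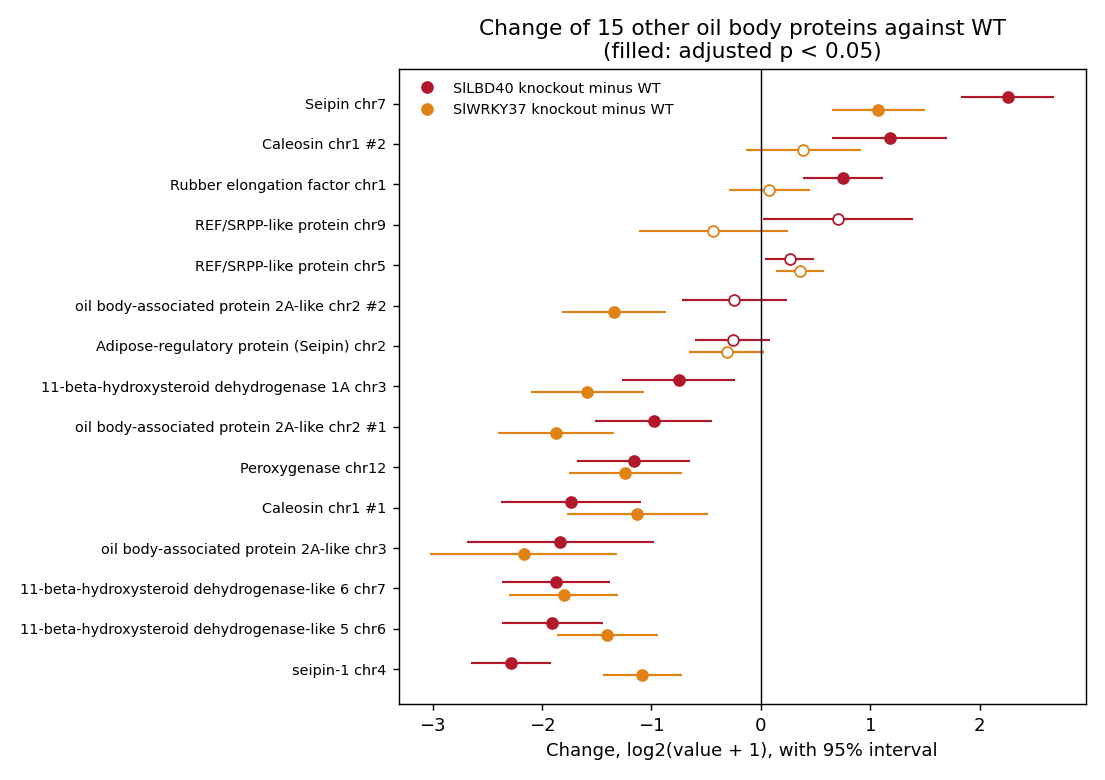
Change of 15 other oil body proteins on the log2(value + 1) scale, SlLBD40 knockout minus WT above and SlWRKY37 knockout minus WT below within each pair, with 95% intervals from the limma fit; filled points passed at an adjusted p below 0.05 and # gives the copy number. Seipin chr7 lies at 2.25 and 1.07 and seipin-1 chr4 at -2.28 and -1.08.

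Genes for making and using the oil were counted from lists of enzymes, beside a share over all tested genes of 18% higher and 19.2% lower in the SlLBD40 knockout and of 4.82% higher and 4.56% lower in the SlWRKY37 knockout. There were 24 tested genes whose descriptions matched enzyme families of triacylglycerol synthesis. Whether each of them serves oil synthesis was not tested. Of these 24 genes, 10 rose and 1 fell in the SlLBD40 knockout (median log2 change 0.23). In the SlWRKY37 knockout 2 rose and 0 fell (median 0.03). Glycerol-3-phosphate acyltransferase on chromosome 1, of the family that adds the first acyl chain, averaged 63 ± 8.4 in the SlLBD40 knockout, 42 ± 9.85 in the SlWRKY37 knockout and 24.8 ± 0.739 in WT, and rose in both (adjusted p = 0.000573 and 0.0234). Phospholipid:diacylglycerol acyltransferase on chromosome 3, which adds the last acyl chain from a phospholipid, averaged 37.6 ± 4.96 in the SlLBD40 knockout and 19.3 ± 3.12 in WT (adjusted p = 0.012).

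Of the 3 tested triacylglycerol lipases, 0 passed in either knockout with limma, and 0 had an unadjusted p below 0.05. The more abundant SDP1-like lipase on chromosome 10 (copy 2), related to the lipase that starts oil breakdown in Arabidopsis seedlings, averaged 85.8 ± 11.2 in the SlLBD40 knockout, 76.9 ± 19.3 in the SlWRKY37 knockout and 68.3 ± 10.6 in WT (adjusted p = 0.201 and 0.687). Of 23 genes found with patterns for fatty acid breakdown and the glyoxylate cycle, 4 rose and 4 fell in the SlLBD40 knockout (median 0.17) and 1 rose and 4 fell in the SlWRKY37 knockout (median -0.16). Over all tested genes 18% were higher and 19.2% lower in the SlLBD40 knockout, close to the share of this list in each direction, and 4.82% higher and 4.56% lower in the SlWRKY37 knockout. The patterns also took in isopropylmalate synthases, enzymes of leucine synthesis. Acyl-CoA oxidase/dehydrogenase on chromosome 10 (copy 1), of the first step of beta-oxidation, averaged 147 ± 8.77 in the SlLBD40 knockout and 77.9 ± 12 in WT (adjusted p = 0.00231). Phosphoenolpyruvate carboxykinase on chromosome 4, which leads from stored oil to sugar, averaged 502 ± 105 in the SlWRKY37 knockout and 928 ± 205 in WT (adjusted p = 0.0148).

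The CDC48 ATPase and its UBX-domain adaptors pull ubiquitin-marked oleosin off the oil body in Arabidopsis. Of 20 tested genes with these descriptions, 11 fell and 1 rose in the SlLBD40 knockout (median log2 change -0.32), and 1 fell and 0 rose in the SlWRKY37 knockout (median -0.07). Of all tested genes, 19.2% fell and 18% rose in the SlLBD40 knockout, and 4.56% fell and 4.82% rose in the SlWRKY37 knockout, so that the list lay near the background in the SlWRKY37 knockout. Cell division cycle protein 48-like protein on chromosome 3 averaged 9.02 ± 0.515 in the SlLBD40 knockout, 16 ± 10.7 in the SlWRKY37 knockout and 46.5 ± 8.83 in WT, and fell in both (adjusted p = 0.00151 and 0.0178). A more abundant gene of that description lies on chromosome 6 (copy 1). Its means were 244 ± 17.1 in the SlLBD40 knockout, 325 ± 15.2 in the SlWRKY37 knockout and 360 ± 25 in WT. This gene fell by 0.56 in the SlLBD40 knockout (adjusted p = 0.00237) and did not pass in the SlWRKY37 knockout. The genes described as UBX domain-containing protein 10, the adaptor known for this role in Arabidopsis, were picked out after their values were seen. The most abundant of them, on chromosome 8, averaged 69.6 ± 2.86 in the SlLBD40 knockout, 73.2 ± 12 in the SlWRKY37 knockout and 89.4 ± 2.87 in WT (adjusted p = 0.0438 and 0.164).

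Of 11 tested regulators of seed maturation and dormancy, 2 rose and 5 fell in the SlLBD40 knockout (median log2 change -0.16), and 0 rose and 3 fell in the SlWRKY37 knockout (median -0.51). The shares of all tested genes, for these regulators and for the lists that follow, were 18% higher and 19.2% lower in the SlLBD40 knockout and 4.82% higher and 4.56% lower in the SlWRKY37 knockout. Among them was the bZIP factor gene ABSCISIC ACID-INSENSITIVE 5-like protein 5 (chromosome 1), whose Arabidopsis relatives act in the response to abscisic acid. It averaged 13.9 ± 2.26 in the SlLBD40 knockout, 21.5 ± 6.31 in the SlWRKY37 knockout and 46.6 ± 5.21 in WT. The gene fell in both knockouts (adjusted p = 0.000453 and 0.00766). ABSCISIC ACID-INSENSITIVE 5-like protein 4 (chromosome 9) averaged 47.5 ± 3.92 in the SlLBD40 knockout, 41.8 ± 11.8 in the SlWRKY37 knockout and 78.4 ± 7.84 in WT and fell in both (adjusted p = 0.0128 and 0.0119). The mean of ABSCISIC ACID-INSENSITIVE 5-like protein 7 (chromosome 1) was higher in the SlLBD40 knockout (50.5 ± 3.74) than in WT (30.8 ± 9.93). In the SlWRKY37 knockout this gene averaged 7.63 ± 0.968 and fell (limma adjusted p = 0.000742). B3 domain-containing transcription repressor VAL1 (chromosome 2) fell in the SlLBD40 knockout, to 8.69 ± 0.718 from 15.7 ± 0.423 in WT (adjusted p = 0.00167). Among the other products of seed maturation, 21 of 43 LEA and dehydrin genes fell and 6 rose in the SlLBD40 knockout, and 25 fell and 3 rose in the SlWRKY37 knockout (medians -0.65 and -1.06). Storage protein descriptions, which take in the wider lipid-transfer family, matched 34 tested genes. Of these, 11 fell and 9 rose in the SlLBD40 knockout, and 5 fell and 7 rose in the SlWRKY37 knockout (medians -0.15 and 0.32). Vicilin on chromosome 9 fell in the SlLBD40 knockout, to 419 from 5912 in WT (log2 change -3.82, adjusted p = 0.000638). Vicilin-like protein At2g18540 averaged 107 ± 5.78 in the SlLBD40 knockout, 88 ± 7.89 in the SlWRKY37 knockout and 356 ± 51 in WT. It fell in both (adjusted p = 4.23e-05 and 7.35e-05). A 2S albumin superfamily gene on chromosome 8 (copy 3) rose in the SlWRKY37 knockout, to 23.15 from 7.64 in WT (adjusted p = 0.00221).

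The genes beside the oleosins in the table were also read, as the 2 nearest tested genes on each side. Of these 36 neighbours, 10 fell and 5 rose in the SlLBD40 knockout, and 5 fell and 1 rose in the SlWRKY37 knockout, with median log2 changes of -0.25 and -0.0034. All tested genes had 19.2% lower and 18% higher in the SlLBD40 knockout, and 4.56% lower and 4.82% higher in the SlWRKY37 knockout. The gene directly before oleosin S1-2-like is described as alkaline alpha-galactosidase seed imbibition protein, and it changed by -2.50 in the SlLBD40 knockout and by -2.33 in the SlWRKY37 knockout (adjusted p = 0.000128 and 0.000536). The nearest tested gene after oleosin S1-2-like, an amino acid transporter, changed by -0.44 and -0.02 and did not pass (adjusted p = 0.448 and 0.985).

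The 10 untested members were at or near 0. The rows described as Oleosin 14.9 kDa, 9 in all, on chromosomes 3, 5, 6, 8 and 10, share 1 best-matching protein, and 8 of them were listed at 0 in all libraries. The other, on chromosome 5 (copy 1), was listed at 0.01 in SlWRKY37 knockout replicate 2 and at 0 elsewhere. For 6 of the 9 the quality code of the description marks a match that did not meet the overlap criterion. Oleosin on chromosome 8 (copy 1) had 0, 2.19 and 0.48 in the SlLBD40 knockout libraries, 0, 0 and 1.66 in the SlWRKY37 knockout libraries, and 0, 0.38 and 0 in the WT libraries. With a mean of 0.523 it lay below the minimum level, and its libraries overlapped between the groups.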

How the data were processed

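Per the labels' protocols, total RNA of the seeds was isolated with an RNeasy kit and turned into sequencing libraries with a SMARTER kit. Per the submitters' processing notes, TopHat2, HISAT2, StringTie and Cufflinks were used, without versions, order or role; the sources used here give neither build nor annotation. The deposited values were taken as FPKM, since they have 2 decimals, sum to different totals and come from tools that write FPKM; no header states the unit, and TPM over a larger gene set is possible. The deposited column of WT replicate 1 touches the gene names, and all columns were read by character position. How the authors' counting divided reads between similar oleosin genes is not given.

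Genes with a mean of at least 1 (18346) were tested on log2(value + 1) with limma 3.58.1 in R 4.3.3 (trend, all 9 libraries, genotype as the only term), with Benjamini-Hochberg adjustment over all tested genes and a threshold of 0.05. The pseudocount makes the change of low genes smaller. The script was tested on simulated data. Members, lists and tests were chosen with earlier results of these data known. All members were named, with every tested gene of the oil body list, up to 4 called genes of each other list per knockout from which examples are printed, and the genes with the highest and lowest correlation to the mean oleosin profile. Neighbours are in the order of the table, whose shortened IDs leave the order of coding genes unchecked. No sequences were used here. Figures were drawn with matplotlib 3.10.9 in Python 3.11.15.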

Additional observations from a re-analysis of the deposited data

How the results depend on the processing

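Every alternative kept the oleosins that passed in either comparison with WT lower in the knockout. With limma, 7 to 9 of the 9 oleosins passed in the SlLBD40 knockout over the alternatives and 5 to 8 in the SlWRKY37 knockout. Oleosin on chromosome 8 (copy 2) lost its call in the SlLBD40 knockout in 12 of 18 alternatives and in the SlWRKY37 knockout in 7 of 18, and Oleosin on chromosome 3 (copy 1) lost its call in the SlWRKY37 knockout in 6. Between the knockouts 2 to 4 oleosins passed when single libraries were left out, with 4 without SlWRKY37 knockout replicate 3. Leaving out single libraries moved the change of Oleosin on chromosome 2 in the SlWRKY37 knockout between -0.39 (without SlWRKY37 knockout replicate 3) and 0.36 (without SlWRKY37 knockout replicate 1), and that of Oleosin on chromosome 6 (copy 1) between the knockouts between -0.010 (without SlWRKY37 knockout replicate 2) and 0.37. The cause was not tested.

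Over all genes, 6826 passed in the SlLBD40 knockout, 1721 in the SlWRKY37 knockout and 4953 between the knockouts. With a log2 change of at least 1 these were 2005, 816 and 1499. A fit of only the 2 groups compared gave more genes in the SlLBD40 knockout (8322) and fewer in the SlWRKY37 knockout (802) and between the knockouts (3147). Without single libraries the counts were 4533 (SlLBD40 knockout replicate 1 left out) to 7641, 783 (WT replicate 1) to 2629 (SlWRKY37 knockout replicate 3), and 2282 (SlLBD40 knockout replicate 1) to 5192. With the replicate number as a block, 8, 8 and 2 oleosins passed, and 6040, 1203 and 4117 genes. For same-numbered libraries of different groups, the correlation of their deviations from the group means was over 0.1 in 0 of 9 pairs (-0.10 to 0.06). With 3 libraries per group, whose deviations sum to 0, this cannot show whether same-numbered libraries share a batch. Oleosin on chromosome 6 (copy 3) passed in the SlWRKY37 knockout under the block (adjusted p = 0.0349) and without WT replicate 3 (0.0341). Precision is limited by 3 libraries per group and an unknown depth.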

Other observations

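LOB domain genes, the family of SlLBD40, lie next to some oleosins in the order of the table. Of the 19 oleosins, 2 had a LOB domain gene directly beside them (Oleosin on chromosome 2 and Oleosin on chromosome 3, copy 1) and 3 had one within 10 protein-coding genes; these were among the 9 tested oleosins, and 0 of the 10 untested ones had one within 10 genes. Among the 34019 protein-coding genes that are not LOB domain genes, oleosins included, 0.273% had one of the 56 LOB domain genes directly beside them. Within 10 genes, 2.69% had one. The LOB domain gene beside Oleosin on chromosome 2 was listed at 0 in all libraries, and the one beside Oleosin on chromosome 3 (copy 1) averaged 0.277 in the SlLBD40 knockout, 0.507 in the SlWRKY37 knockout and 0.0533 in WT. This was noticed after the values were seen and was not tested, and the order of coding genes in the table was not checked.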
